A study of Homo sapiens with 4 samples.

Results

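Regulators and markers of the epithelial-mesenchymal transition (EMT) were followed in bone cancer cells grown without attachment. They were 6 transcription factors (SNAI1, SNAI2, TWIST1, TWIST2, ZEB1 and ZEB2), 2 cadherins of mesenchymal cells (CDH2 and CDH11), the intermediate filament vimentin (VIM) and the matrix glycoprotein fibronectin (FN1). They were chosen by gene symbol, and all 10 were found among the 61806 genes of the deposited table. RNA sequencing covered 4 libraries. JJ012 is a human chondrosarcoma line, a tumor of cartilage, and 143B a human osteosarcoma line, a tumor of bone. Each line was kept in suspension and was either left untreated, as the control, or given 1 mM melatonin for 72 h. Every condition had 1 library and no replicate, so that no difference within a line could be set against the spread between cultures. Whether the controls received the solvent of melatonin is not given in the sources used here.

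EMT is the program by which epithelial cells lose their junctions and gain the shape, filaments and motility of mesenchymal cells. Snail, Twist and ZEB factors drive it, in large part by binding short E-box motifs and repressing CDH1, the gene of E-cadherin, while N-cadherin, vimentin and fibronectin are gained. Sarcomas arise from mesenchymal tissue, in which many of these genes are active from the outset, and the same factors have been tied to survival of detached cells and to metastasis.

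The 4 libraries held between 15889564 and 19218343 counts, at which the floor of 3 counts lay between 0.156 and 0.189 CPM (counts scaled to a library total of 1000000). Between 13198 and 14477 genes reached 1 FPKM (counts normalized to exonic length and library total). Cartilage markers were sparse in JJ012. In its control library 2 of 11 reached 1 FPKM, namely SOX9 and COL11A1, and the defining matrix genes COL2A1 and ACAN were listed at 0 and 0.02 FPKM. In control 143B, 2 of 9 osteoblast markers reached 1 FPKM, RUNX2 at 4.28 and BGLAP at 1.44 FPKM, while SP7 and IBSP were listed at 0. The osteoblast list was higher in control JJ012 than in the osteosarcoma line, with 4 of 9 at 1 FPKM and a sum of 96.4 FPKM, most of it SPP1 (79.4 FPKM), against 6.99 FPKM. The T cell gene CD3E stood at 9.73 FPKM in control and 3.28 FPKM in melatonin-treated JJ012, where the other 3 blood markers, PTPRC among them, were at or below 0.53 FPKM. The 4 blood markers summed to 10.9 and 4.18 FPKM in these libraries and to at most 0.15 FPKM in 143B, and the 3 endothelial markers to between 0.93 and 2.40 FPKM in the 4 libraries. Their part in the results was not tested.

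The upstream sequences of VIM, FN1 and ZEB1 are shown because VIM and FN1 were lower and ZEB1 higher with melatonin in JJ012. Their log2 ratios of FPKM + 1 were -1.44, -0.80 and 0.56, the last under the threshold of 0.58 used below. The runs were taken from RefSeq (GRCh38.p14), from which entries of 6 of the 10 members were used (ZEB1, ZEB2, TWIST2, CDH2, VIM and FN1). This does not show that the other members, SNAI2 among them, lack an entry. No upstream sequence of SNAI2 was examined. ZEB1 has 7 entries, and the most upstream is shown. Each is written in the direction of transcription, up to the base before the start site for VIM and ZEB1 and up to 105 bases before it for FN1. Capitals mark matches to the E-box CANNTG, the cyclic AMP response element TGACGTCA and the GC box GGGCGG, each searched on both strands. The FN1 run is chr2:215436173-215436318 (minus strand), the VIM run chr10:17227991-17228240 (plus strand) and the ZEB1 run chr10:31318167-31318416 (plus strand), all upstream of their start sites.
FN1: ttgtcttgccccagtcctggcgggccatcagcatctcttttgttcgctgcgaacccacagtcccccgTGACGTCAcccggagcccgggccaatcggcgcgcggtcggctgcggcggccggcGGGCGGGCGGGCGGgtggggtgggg
VIM: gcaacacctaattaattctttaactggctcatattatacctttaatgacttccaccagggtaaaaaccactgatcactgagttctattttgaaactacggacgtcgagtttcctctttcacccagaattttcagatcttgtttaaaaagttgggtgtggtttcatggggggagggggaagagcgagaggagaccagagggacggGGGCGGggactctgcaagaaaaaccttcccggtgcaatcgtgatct
ZEB1: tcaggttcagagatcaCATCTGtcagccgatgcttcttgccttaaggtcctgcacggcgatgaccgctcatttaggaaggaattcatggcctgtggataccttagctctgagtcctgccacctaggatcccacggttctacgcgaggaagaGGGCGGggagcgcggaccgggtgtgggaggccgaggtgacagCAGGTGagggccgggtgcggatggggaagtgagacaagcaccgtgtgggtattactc

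The FN1 run held the response element 183 bases before the start, a motif found in 1.65% of 35116 RefSeq promoter windows of 250 bases. The ZEB1 run held E-boxes 234 and 57 bases before the start. The nearer is CAGGTG, the form preferred by Snail and ZEB proteins, which is also a match to CANNTG and occurred in 17.5% of the windows, against 61.8% for CANNTG. Among the ZEB1 entries not shown, the one starting at chr10:31318966 held 2 matches to this form and the rest held none. The VIM run held a single GC box, 46 bases before the start, and GC boxes occurred in 42.6% of the windows. These matches describe letters and not occupied sites.

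Vimentin and fibronectin were the most abundant of the 10 transcripts per length in every library, and their order differed between the lines. VIM, which forms the filament network of mesenchymal cells (chr10:17228241-17237593, plus strand, hg38), measured 611 FPKM in control JJ012 and 224 FPKM with melatonin, and 1676 and 1517 FPKM in control and melatonin-treated 143B. Among all genes ordered by FPKM it held rank 30 and rank 60 in JJ012 and rank 6 and rank 7 in 143B. FN1, which links cells to the matrix through integrins (chr2:215360440-215436073, minus strand), measured 800 FPKM in control JJ012, 458 FPKM in melatonin-treated JJ012, 69.5 FPKM in control 143B and 34.8 FPKM in melatonin-treated 143B. VIM was thus higher in both 143B libraries than in either JJ012 library, and FN1 the reverse. FN1 alone took 1.38% of all counts in control JJ012 and 0.12% in control 143B.

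**Figure D1:**
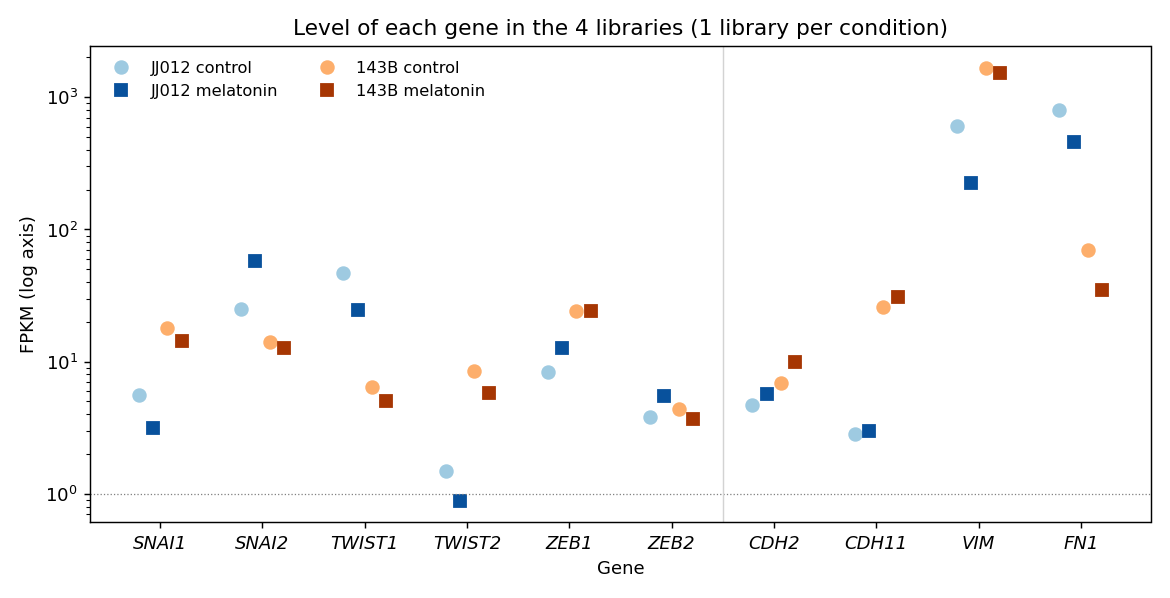
FPKM of the 10 genes on a log axis in each of the 4 libraries, with circles for controls and squares for melatonin, and a dotted line at 1 FPKM. VIM and FN1 stand above the other 8 genes in every library, FN1 by the least in melatonin-treated 143B, where it has 34.8 FPKM and CDH11 31.0 FPKM.

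VIM showed the largest fall of the 10 after melatonin in JJ012 and FN1 the largest in 143B. In JJ012, VIM went from 60778 to 18740 counts, which is 2.72-fold lower in CPM (exact 95% interval 2.68 to 2.77). The intervals here and throughout cover counting error only, since each condition had 1 library. PCR copies are not independent molecules, so even that error may be understated. In 143B, VIM was 1.10-fold lower (1.10 to 1.11), from 137868 to 134786 counts. FN1 was lower with melatonin in both lines, 1.75-fold in JJ012 (1.73 to 1.76) and 2.00-fold in 143B (1.95 to 2.05). In RNA from whole cultures, a lower level in every cell and a smaller share of cells with the transcript cannot be told apart. VIM-AS1, an antisense transcript overlapping VIM, had at most 0.378% of its counts, and no annotated gene of the table overlapped FN1.

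SNAI2 and TWIST1 exchanged places in JJ012. SNAI2, which encodes Slug, a zinc finger repressor of the Snail family, stood at 25.2 FPKM in the control and 58.0 FPKM with melatonin in JJ012, and at 14.1 and 12.7 FPKM in 143B. The melatonin-treated JJ012 library was the highest of the 4 and the other three lay within a narrower range. In CPM, SNAI2 was 2.30-fold higher in JJ012 (2.16 to 2.45), from 1589 to 3071 counts. In 143B the interval reached no difference (log2 ratio -0.15, -0.30 to 0.00).

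SNAI1, which encodes Snail, the best known repressor of CDH1 (chr20:49982980-49988886, plus strand), moved the other way from its paralog in JJ012. Its level was 5.58 FPKM in the control and 3.16 FPKM with melatonin in JJ012, and 17.9 and 14.2 FPKM in 143B. Both 143B libraries lay above both JJ012 libraries. With melatonin it was lower 1.77-fold in JJ012 (1.36 to 2.31, from 183 to 87 counts) and 1.26-fold in 143B (1.10 to 1.44, from 486 to 417 counts). SNAI2 made up 81.9% of the Snail pair's summed FPKM in control JJ012 and 94.8% with melatonin, against 44.0% and 47.1% in 143B.

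TWIST1, a basic helix-loop-helix factor of mesoderm and skull development (chr7:19020991-19117636, minus strand), was high in JJ012 and low in 143B. It measured 47.1 FPKM in control JJ012 and 24.6 FPKM after melatonin, and 6.43 and 5.08 FPKM in the 143B libraries. Melatonin-treated JJ012 was 1.92-fold lower than its control (1.76 to 2.08), while in 143B the difference was 1.27-fold (1.03 to 1.56) on 204 and 174 counts. An unnamed gene on the opposite strand had counts equal to at most 6.32% of those of TWIST1. TWIST2, its close relative (chr2:238848032-238910534, plus strand), had 1.48 and 0.89 FPKM in control and melatonin-treated JJ012, on 53 and 27 counts, and 8.52 and 5.83 FPKM in 143B. The 2 lines thus differed in which Twist gene was the more abundant. TWIST1 held 97.0% of the pair's FPKM in control JJ012 and 43.0% in control 143B, with 96.5% and 46.6% after melatonin. TWIST2 was lower with melatonin in both lines, on log2 ratios of -0.72 (-1.45 to -0.03) in JJ012 and -0.55 (-0.83 to -0.27) in 143B.

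The ZEB factors, large zinc finger and homeodomain repressors, were higher with melatonin in JJ012 alone by their counting intervals. ZEB1 (chr10:31318495-31529814, plus strand) had 8.31 FPKM in control JJ012 and 12.8 FPKM with melatonin, and 24 FPKM in each of the 143B libraries. ZEB2 (chr2:144364364-144521057, minus strand) had 3.82 and 5.54 FPKM in JJ012 and 4.40 and 3.69 FPKM in 143B. ZEB1 was therefore the more abundant ZEB gene per length in all 4 libraries, with 68.5% to 86.7% of the pair. The JJ012 differences were 1.54-fold for ZEB1 (1.43 to 1.65) and 1.45-fold for ZEB2 (1.36 to 1.54), whereas in 143B ZEB1 had a log2 ratio of 0.00 (-0.07 to 0.07) and ZEB2 was 1.19-fold lower (1.12 to 1.28).

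Longer transcripts tended to have higher ratios in JJ012, and both ZEB values moved with that trend. Across the 15794 genes tested, Spearman's rho of the log2 ratio with exonic length was 0.24 in JJ012, and it was -0.01 across 14135 genes in 143B. These genes share their libraries and are not independent replicates. With the running median over length removed, a setting chosen after seeing the data, the log2 ratio of ZEB1 in JJ012 went from 0.56 to 0.31 and that of ZEB2, whose annotated exons cover 26151 bases, from 0.44 to 0.03. ZEB1-AS1, read from the opposite strand next to ZEB1, had 376 and 590 counts in control and melatonin-treated JJ012 and 131 and 199 in 143B. All genes overlapping ZEB1 together had up to 33.4% of its counts. The strand setting of the counting is not given in the sources used here, so reads of ZEB1 and of its antisense partner cannot be told apart.

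**Figure D2:**
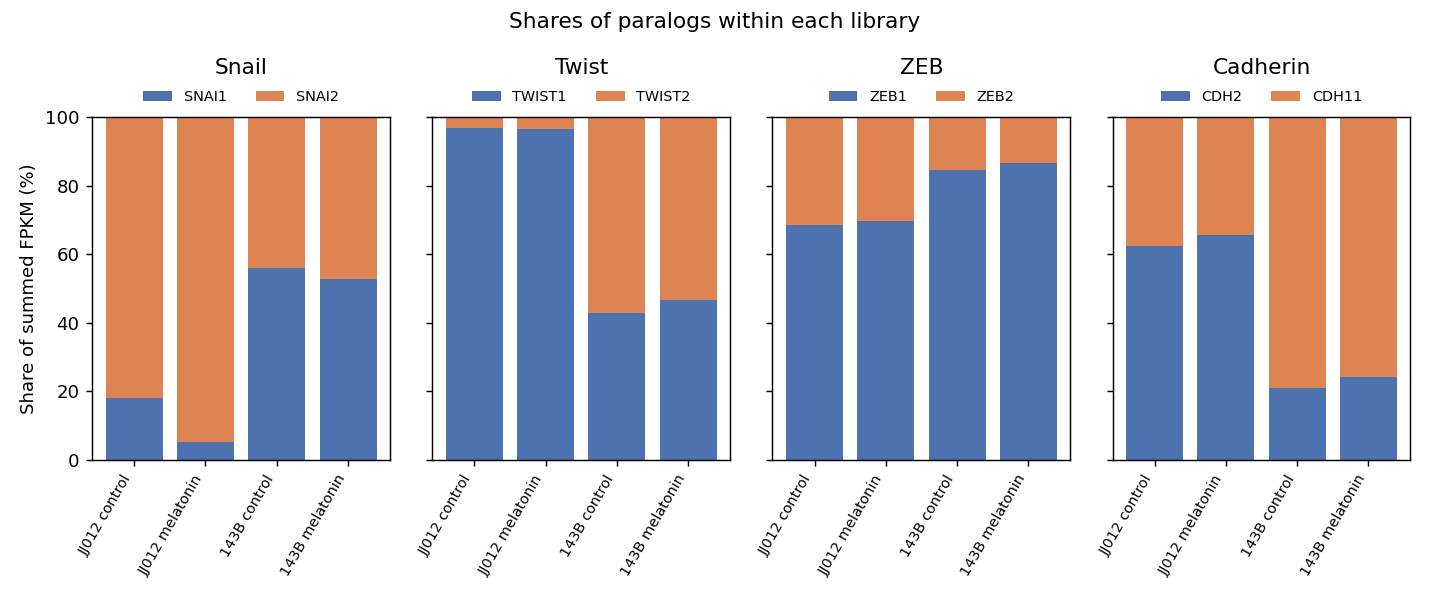
Share of summed FPKM (percent) held by each paralog within a library, for the Snail, Twist and ZEB pairs and for the cadherins, with CDH1 too small to draw. SNAI2 takes 94.8% of the Snail pair in melatonin-treated JJ012, and TWIST1 takes at least 96.5% of the Twist pair in JJ012 but under 50% in 143B.

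Summed over the 6 factors, the level was 91.5 and 105 FPKM in control and melatonin-treated JJ012 and 75.4 and 65.6 FPKM in 143B. TWIST1 was the leading factor in control JJ012 with 51.5% of the sum, and SNAI2 led with 55.3% after melatonin, when TWIST1 held 23.4%. In 143B, ZEB1 led in both libraries with 31.8% and 36.6%. No window of 150 bases was identical between SNAI1 and SNAI2, TWIST1 and TWIST2, ZEB1 and ZEB2 or CDH2 and CDH11 in the GENCODE 29 transcripts, the longest run shared being 27 bases, in the ZEB pair.

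The cadherins join neighboring cells through calcium-dependent contacts. CDH11 differed more between the lines than with melatonin. For CDH2 the untreated lines differed 1.46-fold in CPM, close to its melatonin difference in 143B. CDH11, typical of osteoblasts and other mesenchymal cells (chr16:64943753-65126112, minus strand), had 2.83 and 2.99 FPKM in control and melatonin-treated JJ012 and 26.0 and 31.0 FPKM in 143B. CDH2, the gene of N-cadherin (chr18:27932879-28177946, minus strand), had 4.74 and 5.71 FPKM in JJ012 and 6.94 and 9.87 FPKM in 143B. Both genes were thus higher in each 143B library than in either JJ012 library, by a small margin for CDH2. With melatonin, CDH2 was 1.20-fold higher in JJ012 (1.09 to 1.33) and 1.42-fold higher in 143B (1.31 to 1.55). CDH11 was 1.19-fold higher in 143B (1.15 to 1.24), and in JJ012 its interval included no difference (log2 ratio 0.08, -0.08 to 0.24). CDH1, the epithelial cadherin that the 6 factors repress, had 1 and 0 counts in control and melatonin-treated JJ012 and 0 and 1 in 143B, all under the floor of 3 counts, so that no fold is given. EPCAM, an epithelial adhesion gene, had 7 and 2 counts in JJ012 and 54 and 33 in 143B.

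By threshold, 5 of the 10 genes in JJ012 and 1 of the 10 in 143B differed with melatonin, which is near the shares of all genes given below. Genes with at least 1 FPKM in either library of a line were compared on the log2(FPKM + 1) scale, which understates the change of low genes, and an absolute value of 0.58 was used as the threshold. All 10 members passed the filter in both lines. In JJ012, SNAI2 was higher (1.17) and VIM (-1.44), TWIST1 (-0.91), FN1 (-0.80) and SNAI1 (-0.66) were lower, against a background of 38.2% of all 15794 genes past the threshold, 19.6% higher and 18.6% lower. In 143B, FN1 alone of the 10 was lower (-0.98), against a background of 12.7% of 14135 genes, 6.09% higher and 6.65% lower. The share of members past the threshold was therefore 50% in JJ012 and 10% in 143B. With 10 members these shares are coarse, and they lie near the 38.2% and 12.7% of all genes. The median member stood at -0.17 in each line, where the median of all genes was 0.01 and 0.03. ZEB1, at 0.56 in JJ012, lay just under the threshold. By counting interval, 9 of the 10 differed in JJ012, where 72.2% of all genes did, and 8 of the 10 in 143B, where 52% did. Of these, 4 members were higher and 5 lower in JJ012 (36.9% and 35.2% of all genes), and 2 were higher and 6 lower in 143B (28.4% and 23.5%).

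**Figure D3:**
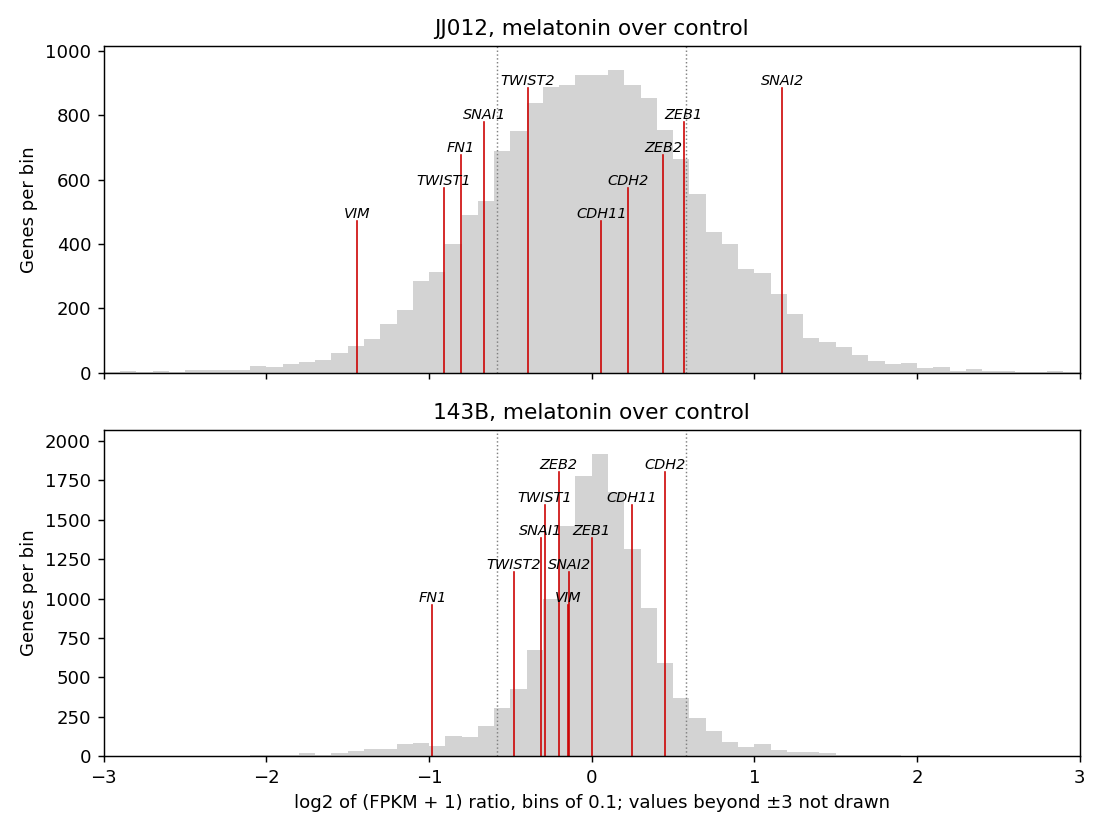
Number of genes per bin of 0.1 of the log2(FPKM + 1) ratio of melatonin over control in JJ012 (upper panel) and 143B (lower panel), with a red line for each of the 10 genes and dotted lines at the threshold of 0.58. VIM (-1.44) and SNAI2 (1.17) lie towards the edges of the JJ012 distribution, and FN1 (-0.98) lies lowest of the 10 in 143B.

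Among all genes tested, 1.94% had a lower ratio than VIM in JJ012, 4.75% had a higher ratio than SNAI2 in JJ012, and 2.83% had a lower ratio than FN1 in 143B. SNAI2 and VIM stayed past the threshold in JJ012 in all 10 other settings tried. FN1 did so in 9 of 10 settings in 143B and in 8 of 10 in JJ012, and in JJ012 TWIST1 did so in 8 of 10, SNAI1 in 7 of 10 and ZEB1 in 4 of 10. SNAI1 was at -0.51 with TPM and at -0.32 with the length trend removed, and TWIST1 at -0.55 with the length trend removed. Where values were rescaled to a common sum per library (TPM), the median gene of JJ012 stood at 0.27 instead of 0.01, and 68.8% of the genes past the threshold were higher, against 51.4% on the FPKM scale. Relative to that shift, SNAI2 and VIM kept their directions.

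The difference in response between the lines was taken for each gene as the log2 CPM ratio in JJ012 less that in 143B, with a 95% interval from counting error. It was 1.35 for SNAI2 (1.18 to 1.52) and -1.30 for VIM (-1.33 to -1.28), the widest of the 10 on either side. ZEB2 (0.79, 0.66 to 0.92) and ZEB1 (0.62, 0.50 to 0.74) also had higher ratios in JJ012, and TWIST1 (-0.60, -0.91 to -0.28) and SNAI1 (-0.49, -0.90 to -0.08) lower ones. FN1 differed little, by 0.20 (0.16 to 0.23). For TWIST2 the interval included no difference (-0.17, -0.90 to 0.55). Melatonin against control was also fitted over all 4 libraries with the line as a block. The block takes out the difference in level between the lines. Their difference in response counts as error, with 1 residual degree of freedom. In this fit 0 of the 10 members had an adjusted p under 0.05 (edgeR's quasi-likelihood test, Benjamini-Hochberg over 18107 genes), where 0.453% of all genes did. At an unadjusted p under 0.05 there was 1 member, FN1, with a fitted log2 difference of -0.93 (edgeR adjusted p = 0.789) and lower values in both lines. With 1 culture per condition, a difference between lines and a difference between individual cultures cannot be told apart.

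**Figure D4:**
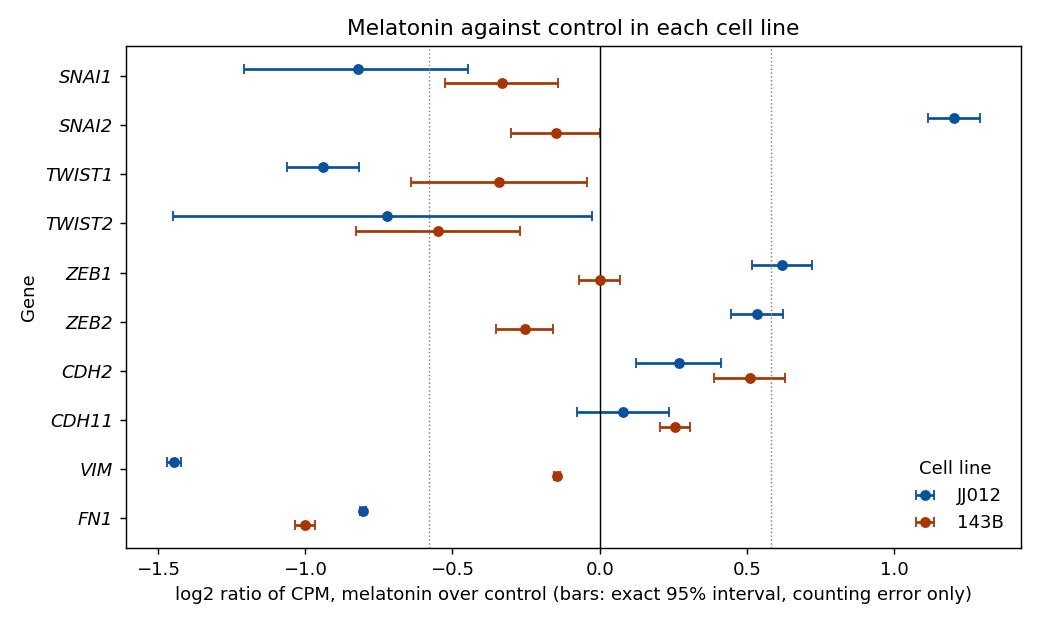
Log2 CPM ratio of melatonin over control for each of the 10 genes in JJ012 (blue) and 143B (brown), with exact 95% intervals for counting error and dotted lines at 0.58 on either side of 0. The lines lie far apart for SNAI2 (1.20 and -0.15) and VIM (-1.45 and -0.14) and 0.20 apart for FN1.

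Untreated JJ012 and 143B cells were set side by side to describe the starting levels. This comparison uses the same control libraries as the melatonin comparisons. Of the 10 genes, 3 were higher in JJ012 past the threshold (FN1, TWIST1 and SNAI2), 5 were lower (CDH11, TWIST2, SNAI1, VIM and ZEB1) and 2 did not pass it (CDH2 and ZEB2), where 68.7% of 16929 genes passed, 41.3% higher and 27.4% lower. On the CPM scale, control JJ012 had 11.5-fold more FN1 (11.3 to 11.7) and 7.33-fold more TWIST1 (6.34 to 8.51) than control 143B. It had 9.19-fold less CDH11 (8.5 to 9.94), 5.77-fold less TWIST2 (4.28 to 7.92), 3.21-fold less SNAI1 (2.70 to 3.83), 2.89-fold less ZEB1 (2.71 to 3.08) and 2.74-fold less VIM (2.72 to 2.77). By counting interval, 3 of the 10 were higher and 7 lower, all 10 differing where 86% of all genes did (50.8% higher and 35.1% lower). The line with the higher level thus changed from gene to gene within the Snail and Twist pairs. The median of all genes was 0.29 on the log2 scale and 60.1% of those past the threshold were higher in JJ012, but with TPM the share was 49.3%, with TMM factors 49.6% and with the median gene set to 0 it was 48.6%. SNAI2 was past the threshold in 4 of 9 settings and CDH2 in 4 of 9, ZEB2 in 0, and the other seven genes kept their calls in all 9.

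The surrounding program was followed in lists of further genes. Of 34 further mesenchymal genes, 26 passed the filter in JJ012, and 17 were lower past the threshold with melatonin and 0 higher (65.4%, where 38.2% of all genes were past the threshold and 18.6% of all genes were lower), with a median of -1.06 against 0.01 for all genes. The fibrillar collagen genes COL1A2 (12.5 to 0.14 FPKM, log2 difference -3.56) and COL3A1 (10.1 to 0.09 FPKM, -3.34) had the largest falls. Both passed the filter only through the control library, where they were high. Of the 34, 26 reached 1 FPKM in control JJ012 and 19 with melatonin. For genes that passed only through the control the filter fixed the direction, so the split of 17 to 0 and the median partly reflect it. The list was also written with earlier results of these data known. In 143B, 21 of the 34 passed, 2 were higher and 1 lower (14.3%, near the 12.7% of all genes), and the median was 0.23 against 0.03. NT5E, the surface enzyme CD73, was higher in 143B (20.5 to 33.7 FPKM, 0.69), and S100A4, a calcium-binding protein of motile cells, was lower there (3.39 to 0.68 FPKM, -1.39, on 51 and 11 counts). S100A4 was also lower in JJ012, with 395 FPKM in the control and 83.7 FPKM with melatonin (-2.22).

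The epithelial genes that passed the filter gave no rise as a group. Of the 44 listed, 27 in JJ012 and 26 in 143B stayed under 1 FPKM in both libraries of the line and were not assessed. At 1 FPKM were 17 and 15 in control and melatonin-treated JJ012, and 18 and 15 in 143B. Genes that passed only through the control library were lower with melatonin by that choice. In JJ012, 17 of 44 passed the filter, 1 was higher and 6 lower (41.2%, near the 38.2% of all genes), with a median of -0.18. The mucin MUC1 (17.7 to 4.31 FPKM, -1.81) and the tight junction claudin CLDN7 (22.3 to 6.07 FPKM, -1.72) were the lowest, and TJP1, the scaffold ZO-1 found in many cell types, was the gene that was higher (6.58 to 12.1 FPKM, 0.79). In 143B, 18 of the 44 passed, 0 were higher and 2 lower (11.1%, near the 12.7% of all genes), with a median of -0.16. They were PKP3, a desmosomal plaque protein (7.53 to 3.21 FPKM, -1.02), and the keratin KRT18 (35.8 to 22.7 FPKM, -0.64).

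The 27 further transcription factors linked to EMT were nearly balanced. In JJ012, 17 passed the filter, 3 were higher and 4 lower (41.2%, near the 38.2% of all genes), with a median of -0.05. In 143B, 21 passed and 0 were past the threshold in either direction, where 12.7% of all genes were, also with a median of -0.05. FOXC2, a forkhead factor of mesoderm (8.47 to 18.1 FPKM, 1.01), and ETS1 (33.9 to 70.3 FPKM, 1.03) were the highest in JJ012. ID3, an inhibitor of basic helix-loop-helix factors (30.1 to 12.8 FPKM, -1.18), and SOX9, the cartilage factor (15.1 to 6.16 FPKM, -1.17), were the lowest.

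Cofactors and regulators of the stability of the EMT factors were more often higher than lower in JJ012. Of 57 written genes, 56 were in the table and 53 passed the filter in JJ012, where 19 were higher and 4 lower, with a median of 0.44 against 0.01 for all genes. The 23 past the threshold are 43.4% of those that passed the filter, near the 38.2% of all genes (19.6% higher and 18.6% lower). With the length trend removed 16 were past it, and how many of these were higher is not given here. LATS2, a kinase of the Hippo pathway, was among the higher genes (3.30 to 9.92 FPKM, 1.34). The lysyl oxidase family members LOXL3 (30.8 to 6.70 FPKM, -2.05) and LOXL2 (109 to 54.3 FPKM, -0.99), which interact with SNAI1, had the largest falls. In 143B, 51 passed and 0 were past the threshold in either direction, where 12.7% of all genes were, with a median of -0.08.

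**Figure D5:**
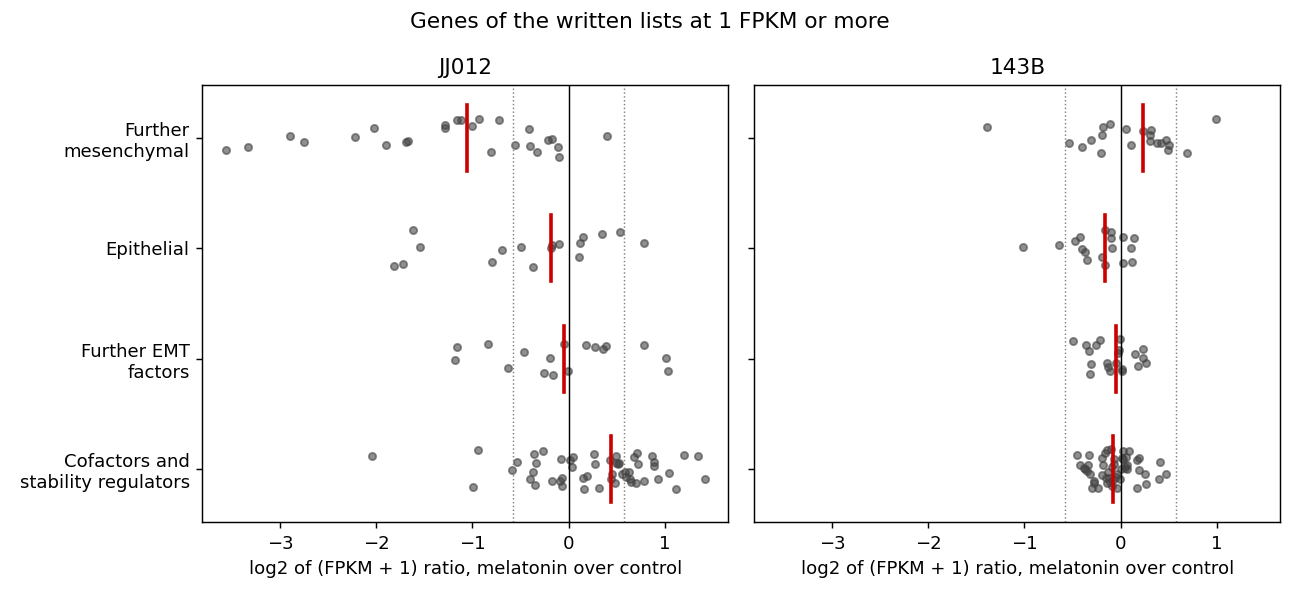
Log2(FPKM + 1) ratio of melatonin over control for each gene of the 4 further lists that passed the filter (grey points, spread vertically for legibility), in JJ012 and 143B, with a red bar at each list's median and dotted lines at 0.58 on either side of 0. The mesenchymal list lies to the left in JJ012 (median -1.06) and near 0 in 143B (median 0.23).

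Genes with the pattern most like each member were sought over the 4 libraries, by the root mean square difference of centred log2 CPM among 9130 genes with at least 100 counts in every library. The nearest to SNAI2 were HIF1A and SLC25A40, both at 0.057, and the nearest to VIM were BMF (0.095) and PTK7 (0.10). TWIST1 was followed by PON2 (0.085) and BCAM (0.087), and ZEB1 by TMEM167B (0.020) and KMT2E (0.032). The nearest to SNAI1 were CAMK1D (0.039) and TRIB2 (0.10), to TWIST2 AMPD3 (0.078) and CALB2 (0.13), to CDH2 SRCIN1 (0.018) and NTMT1 (0.055), and to CDH11 EZR (0.072) and WSCD1 (0.10). FN1 had no neighbor as close, WDR45 (0.20) and LMNA (0.24) being the nearest. With 4 libraries, closeness of this kind is a description only.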

How the data were processed

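RNA of JJ012 and 143B suspension cells was sequenced as poly(A) libraries, with 1 library per condition (4 in all). Counts of 61806 genes were deposited by the authors as whole numbers, not normalized. They also deposited FPKM, made from those counts by dividing by exonic length and library total, as recomputing them to within rounding showed (largest difference 0.005). The length column, deposited too, sums all annotated exons, so genes with long annotations have low FPKM. The submitters' processing notes name cutadapt 1.9.1, HISAT2 2.2.1, HTSeq 0.6.1, DESeq2 and hg38. The strand setting and the annotation release are not given in the sources used here. Columns were matched to samples by cell line, and a suffix T was read as melatonin-treated.

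Log2 ratios were taken of FPKM + 1, keeping genes that reached 1 FPKM in either library of the comparison, and 0.58 was used as the threshold. CPM ratios carry exact (Clopper-Pearson) 95% intervals, and differences between lines Wald intervals. Both cover counting error only. Totals between 15889564 and 19218343 counts set this precision. With 1 library per condition no test within a line was possible. Melatonin was tested across both lines by edgeR's quasi-likelihood test on the counts with the line as a block (TMM factors, genes at 1 FPKM or more in any library), added after seeing the data. Genes named in the text are the 10 members, CDH1 and EPCAM, from each written list up to 2 highest and 2 lowest ratios past the threshold in each line, and up to 2 of like pattern for each member with a range of at least 1 on the log2 CPM scale. Some genes named by this rule are not reported here. The members and lists were chosen with earlier results of these data known. The alternatives were CPM, TPM, a pseudocount of 0.1, a filter of 5 FPKM or none, TMM factors, median-of-ratios factors, centring on the median gene, a threshold of 1 and, added after seeing the data, removal of the running median over exonic length. Upstream sequences came from RefSeq GRCh38.p14 and overlaps between paralogs from GENCODE 29. Procedures were tested on simulated data, with counting error alone for the ratios. For the test across lines, both lines were given the same response and a small fixed spread. The simulations therefore do not show how the intervals or the test behave where cultures vary more or the lines respond differently. TMM factors and this test came from edgeR 4.0.16 in R 4.3.3, and all else from Python 3.11.15 (matplotlib 3.10.9, pandas 2.3.3, scipy 1.17.1 and numpy 2.4.6).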

Additional observations from a re-analysis of the deposited data

Results flagged for a closer look

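ZEB2 took opposite directions in the 2 lines, with a log2 CPM ratio of melatonin over control of 0.53 in JJ012 and -0.25 in 143B. Each value rests on 1 library per condition, the difference between the lines was not tested beyond its counting interval (0.66 to 0.92), and with the running median over exonic length removed the JJ012 value on the log2(FPKM + 1) scale was 0.03.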

How the results depend on the processing

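With 1 library per condition there was no replicate to leave out within a line. The labels give no replicate numbers, and control and melatonin were paired by cell line only. In the test across both lines, added after seeing the data, 82 genes (12 higher and 70 lower) and 0 of the 10 members had an edgeR adjusted p under 0.05 with the line as replicate block, and without the block 0 genes (3 at an unadjusted p under 0.05) and 0 members did. The number of the 10 members higher in JJ012 was 1, and it was 2 with a pseudocount of 0.1 FPKM, with CPM and with TMM factors, and 3 with TPM. The number lower in JJ012 was 4, and it was 2 with TPM, 1 at a threshold of 1 and 2 with the running median over exonic length removed. In 143B the number lower was 1, and it was 2 with TPM and 0 at a threshold of 1. Among the lists in 143B, further EMT factors past the threshold went from 0 to 1 with a pseudocount of 0.1, with TPM and with CPM, further mesenchymal genes from 3 to 5 with a pseudocount of 0.1, and epithelial genes from 2 to 4 with a pseudocount of 0.1 and with TPM. The other 92 counts compared across settings stayed within 1.5 times the reported count, and no called value changed sign. CDH2 and CDH11 in JJ012, which passed no threshold, were at -0.02 and -0.25 with the length trend removed. The cause of these changes was not tested. Depth limits TWIST2 in JJ012 (53 and 27 counts) and CDH1 (at most 1 count).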
